A study of Solanum lycopersicum with 2 samples.

Results

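The cytosolic Hsp70 and Hsc70 chaperones of tomato (Solanum lycopersicum) were followed in leaves through 7 gene models given as a fixed list of identifiers. They are 7 of the 24915 models listed in at least 1 of 2 libraries, and all 7 were listed in both. The libraries came from young leaves of 8-week-old plants of the cultivar Moneymaker, grown in a glasshouse with 16 h days at 24°C and 8 h nights at 20°C. The heat-stress library (13857252 mapped reads) came from plants given 1 h at 39°C in a growth chamber (light of 120 μmol m-2 s-1), after which they recovered for 1.5 h at 24°C. The control library (11534512 mapped reads) came from plants without the heat treatment, and the labels do not say whether those plants were moved as well. No genotype other than the cultivar, and no number of plants per library, is given in the labels.

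Hsp70 proteins are ATP-driven chaperones that bind exposed hydrophobic stretches of unfolded or newly made polypeptides and release them for folding. Partner proteins with a J-domain start ATP hydrolysis, and nucleotide exchange factors reset the cycle. Plant cytosol holds several closely related forms, by tradition called Hsc70 (cognate) where they are present without stress and Hsp70 where they appear mainly after heat. In unstressed plants Hsp70 is also known to hold heat stress transcription factors of the A1 class in check, and in tomato one of these factors, HsfA1a, has been described as a master regulator of the heat response.

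The files carry bare identifiers, with no names or descriptions. Among the 41476 genes of the RefSeq table used here, 0 could be joined to them. That the 7 models encode cytosolic Hsp70 or Hsc70 therefore rests on the list. Which of them is a cognate form was not taken from any annotation, nor could the leaf origin of the libraries be checked against marker genes. The models lie on 6 chromosomes, 4 on the Watson strand and 3 on the Crick strand.

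Levels are given in RPM, reads per 1000000 mapped reads. The method, MACE (massive analysis of cDNA ends), sequences 3' ends so that a transcript molecule gives 1 read, per the labels' protocols. RPM therefore carries no length term, and levels of different models can be set side by side as far as each model reaches the end of its transcript. With 1 library per condition there is no replicate check and no test between conditions. The intervals are exact 95% counting intervals (Poisson for a level, conditional binomial for a ratio) and do not cover variation between plants. Leaves are mixtures of cells, so a change in the number of cells of a type and a change in RNA per cell cannot be told apart.

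The 7 models separated into 4 whose level after heat was at least 2-fold higher and 3 that had at least 100 RPM in the control library, with 0 models in both groups. That separation depends on the level taken as abundant. At 50 RPM in the control library 5 members are abundant, and 2 of these, Solyc03g117630 and Solyc04g011440, are also among the 4 higher after heat. At 500 RPM 2 members are abundant. The share of all models that reach 50 or 500 RPM was not counted. The control level enters both criteria, and the share of all models that meet both was not counted either. The 0 therefore describes these 7 models only. Of the 3 abundant control models, 1 was nearly level between the libraries, 1 was moderately lower in the heat-stress library and 1 was about 4-fold lower. As a background, 11271 models averaged 5 RPM or more over both libraries, and of these 3.91% were higher after heat by 2-fold or more and 1.66% were lower by as much. Models of at least 100 RPM in the control library made up 4.83% of all models listed. The median log2 ratio, log2((heat-stress RPM + 1)/(control RPM + 1)), was 1.03 over the 7 members and 0.10 over all 11271 models, whose quartiles were -0.17 and 0.37.

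**Figure D1:**
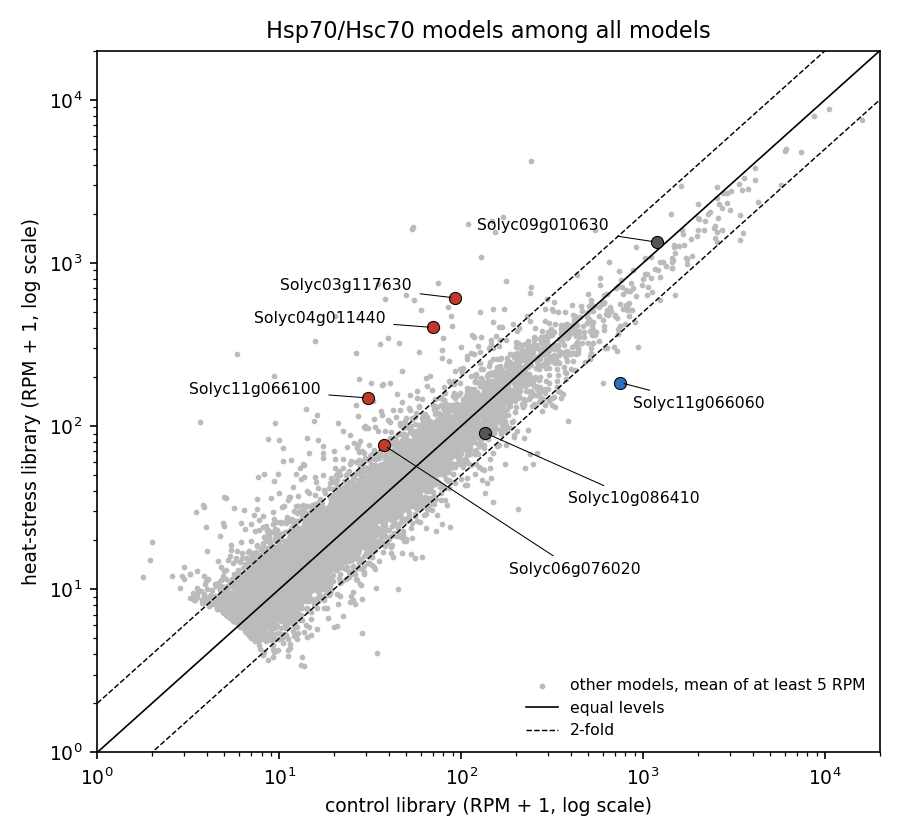
Each point is a gene model with a mean of at least 5 RPM, placed by its level in the control library (horizontal, RPM + 1, log scale) and in the heat-stress library (vertical, RPM + 1, log scale). Large points are the Hsp70/Hsc70 models: red, higher after heat by 2-fold or more; blue, lower by 2-fold or more; grey, neither. Solyc03g117630, Solyc04g011440 and Solyc11g066100 sit well above the upper 2-fold line, Solyc06g076020 on it, and Solyc11g066060 well below the lower one.

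Among the models higher after heat, Solyc03g117630 (Solyc03g117630.1, chromosome 3, Crick strand) had the highest ratio. It was at 610 RPM in the heat-stress library (interval 597 to 623, 8451 reads) and at 91.6 RPM in the control library (86.2 to 97.3, 1057 reads). The ratio of heat-stress to control was 6.66 (6.24 to 7.10), a log2 ratio of 2.72. Only 40 of the 11271 models, itself included, had a ratio as high. Its rank by level was 117 in the heat-stress library and 1309 in the control library.

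Solyc04g011440 (Solyc04g011440.2, chromosome 4, Watson strand) came next, at 402 RPM in the heat-stress library (391 to 412) and 69.0 RPM in the control library (64.3 to 74.0). Its ratio was 5.83 (5.40 to 6.28), a log2 ratio of 2.53, and its rank was 208 in the heat-stress library and 1790 in the control library. Solyc11g066100 (Solyc11g066100.1, chromosome 11, Crick strand) was the least abundant of the 7 in the control library. It had 148 RPM in the heat-stress library (142 to 154) and 29.7 RPM in the control library (26.7 to 33.1), a ratio of 4.97 (4.43 to 5.59) and a log2 ratio of 2.28. These 3 models were all 4-fold or more higher after heat, as were 0.772% of all models. The steps between these 3 ratios were small. The ratio of Solyc03g117630 was 1.14 times that of Solyc04g011440 (1.04 to 1.26), and that of Solyc04g011440 was 1.17 times that of Solyc11g066100 (1.02 to 1.34), with counting intervals taken on the log scale by a normal approximation. Neither interval includes 1, and whether steps of this size exceed the spread between plants cannot be judged from single libraries.

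Solyc06g076020 (Solyc06g076020.2, chromosome 6, Crick strand) was much closer to the threshold. It had 75.6 RPM in the heat-stress library (71.0 to 80.3) and 36.5 RPM in the control library (33.2 to 40.2). The ratio of 2.07 had an interval from 1.84 to 2.32, which includes 2, and the log2 ratio was 1.03. Scaling the libraries to a median ratio of 1, which divides heat-stress levels by 1.08 (0.11 on the log2 scale), gave a log2 ratio of 0.92. A pseudocount of 5 RPM gave 0.96. Under either setting this model was under 2-fold and 3 members in place of 4 were higher. It was the lowest of the 7 in the heat-stress library, and Solyc11g066100, which was below it in the control library, was above it there.

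The 3 models with at least 100 RPM in the control library did not move together. Solyc09g010630 (Solyc09g010630.2, chromosome 9, Watson strand) was the most abundant member in both libraries, with 1342 RPM in the heat-stress library (1323 to 1362) and 1187 RPM in the control library (1167 to 1207). It ranked 56 among all models in the heat-stress library and 69 in the control library. The ratio was 1.13 (1.11 to 1.16) and the log2 ratio 0.18, which lies between the quartiles of all models and 0.07 above their median. The median ratio scaling takes off 0.11, a nearly equal median taken over ratios without a pseudocount. The log2 ratio of 0.07 that it gives therefore largely repeats this value. Whether a difference of this size between 2 single libraries exceeds the spread between plants cannot be judged without replicates.

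Solyc10g086410 (Solyc10g086410.2, chromosome 10, Watson strand) had 90.3 RPM in the heat-stress library (85.3 to 95.4) and 134 RPM in the control library (127 to 140). The ratio was 0.676 (0.627 to 0.729), so control exceeded heat stress by a factor of 1.48, and the log2 ratio was -0.56. Of all 11271 models, 6.90% had a lower log2 ratio.

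Solyc11g066060 (Solyc11g066060.1, chromosome 11, Watson strand) was the second most abundant member in the control library and was far lower after heat. It had 184 RPM in the heat-stress library (177 to 191, 2551 reads) and 746 RPM in the control library (731 to 762, 8607.5 reads). The ratio was 0.247 (0.236 to 0.258), a control level 4.05-fold above that after heat, and the log2 ratio was -2.01. At least 4-fold lower levels were found in 0.0799% of all models, 9 of 11271, and this model had the ninth place in that order. The interval of the ratio includes 4-fold, and the log2 ratio was -1.99 both with a pseudocount of 5 RPM and when libraries were scaled by the reads in gene models. Among the 1204 models of at least 100 RPM in the control library, 4.65% were at least 2-fold lower and 0.415% at least 4-fold lower. Its rank by level was 591 in the heat-stress library and 106 in the control library.

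**Figure D2:**
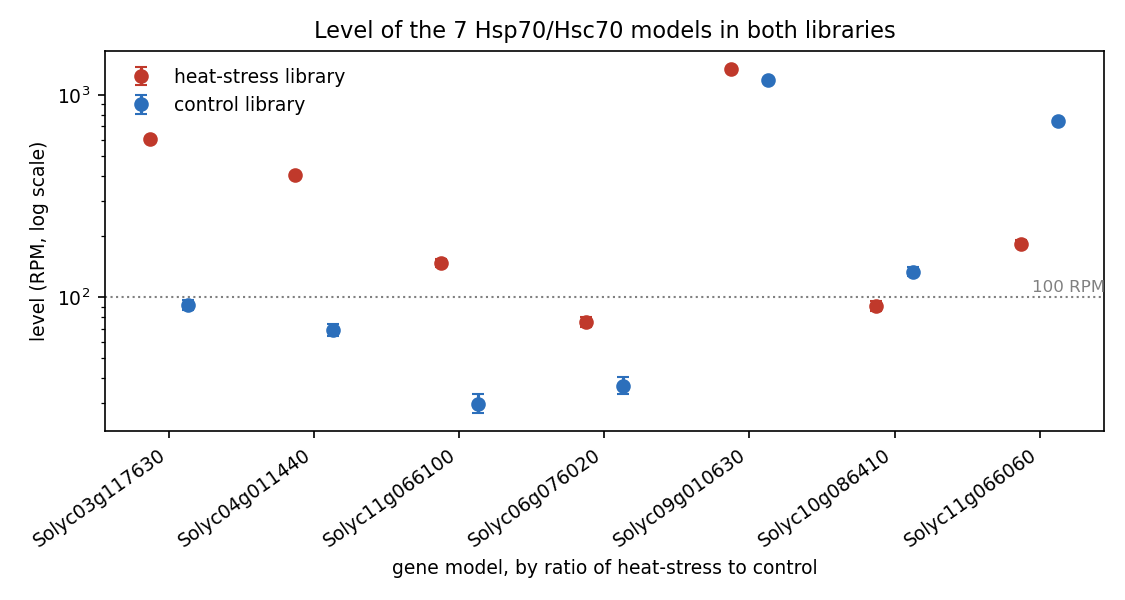
Level of each Hsp70/Hsc70 model (RPM, log scale) in the heat-stress library (red) and in the control library (blue), ordered by their ratio. Points are single libraries, bars are 95% Poisson intervals for counting error, and the dotted line marks 100 RPM. The 4 models on the left have the red point higher, Solyc09g010630 has nearly equal points, and Solyc11g066060 has the blue point 4.05 times higher.

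The order of the members by level was different in the 2 libraries. In the heat-stress library it ran Solyc09g010630, Solyc03g117630, Solyc04g011440, Solyc11g066060, Solyc11g066100, Solyc10g086410 and Solyc06g076020, from 1342 to 75.6 RPM, a span of 17.8-fold. In the control library it ran Solyc09g010630, Solyc11g066060, Solyc10g086410, Solyc03g117630, Solyc04g011440, Solyc06g076020 and Solyc11g066100, from 1187 to 29.7 RPM, a span of 39.9-fold. Neighbours in either order had counting intervals that did not overlap in any of the 6 pairs. Solyc09g010630 was the one member with the same place in both. Solyc03g117630 was at 3.31 times the level of Solyc11g066060 in the heat-stress library and at 0.123 times in the control library, so this pair changed places. At least 100 RPM was reached by 5 members in the heat-stress library, where 4.94% of all models listed reached it, and by 3 in the control library, where 4.83% did.

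Summed over the 7 models, the level was 2851 RPM in the heat-stress library (2823 to 2880) and 2293 RPM in the control library (2266 to 2321), or 0.285% of mapped reads in the heat-stress library and 0.229% in the control library. The ratio of the sums was 1.24 (1.22 to 1.26), far smaller than the ratios of the single higher models. The 4 higher models summed to 1235 RPM in the heat-stress library and 227 RPM in the control library, a difference of 1008 RPM whose direction is fixed by the grouping. Against this, Solyc11g066060 alone differed by -562 RPM (heat-stress minus control). Without Solyc11g066060 the ratio of the sums was 1.72 (1.69 to 1.76), and without Solyc03g117630 it was 1.02 (1.00 to 1.04).

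The make-up of the sum also differed between the libraries. The 4 higher models supplied 43.3% of it in the heat-stress library and 9.89% in the control library. The direction of this difference, too, is fixed by the grouping. Solyc03g117630 alone gave 21.4% in the heat-stress library and 3.996% in the control library, and Solyc04g011440 gave 14.1% in the heat-stress library and 3.01% in the control library. Solyc11g066060 gave 6.46% in the heat-stress library and 32.5% in the control library. Solyc09g010630 held a similar part of the sum in both, with 47.1% in the heat-stress library and 51.7% in the control library. Solyc10g086410, Solyc11g066100 and Solyc06g076020 each gave under 6% in either library (at most 5.83%).

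**Figure D3:**
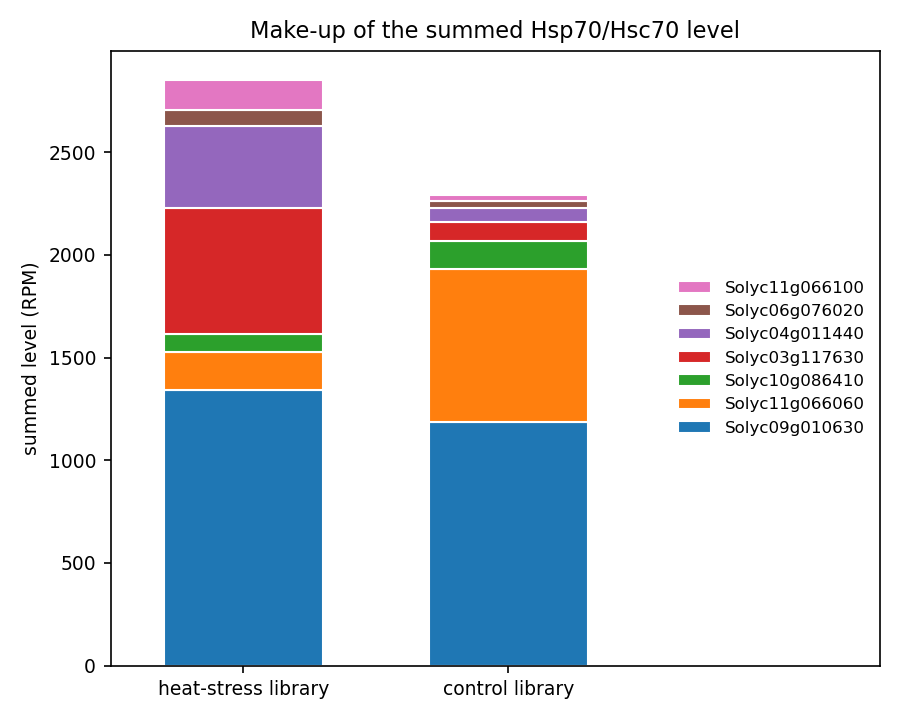
Summed level of the 7 Hsp70/Hsc70 models (RPM) in the heat-stress library (left bar) and in the control library (right bar), stacked by model. The heat-stress bar reaches 2851 RPM and the control bar 2293 RPM. Solyc11g066060 (orange) takes 6.46% of the heat-stress bar and 32.5% of the control bar, and Solyc03g117630 (red) takes 21.4% of the heat-stress bar and 3.996% of the control bar.

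Each file also gives a highest peak per model, as a height in reads. It is a second reading of the same libraries and not an independent one, and the sources used here do not define it. For all 7 members the peak moved in the direction of the reads. The intervals of the ratios from peaks and from reads overlapped, where the peak height was treated as a count of reads. Without a pseudocount, the peak ratios of Solyc03g117630, Solyc04g011440 and Solyc11g066060 lay outside the intervals of their ratios from reads. Per mapped read, the peak of Solyc03g117630 was 5.74 times as high in the heat-stress library (3255 reads) as in the control library (472 reads), with an interval of 5.21 to 6.34. That of Solyc04g011440 was 6.68 times as high (5.68 to 7.91), from 1317 reads in the heat-stress library and 164 in the control library. The peak of Solyc11g066060 had 627 reads in the heat-stress library and 2221 in the control library, so the control peak was 4.26 times as high per mapped read.

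The height of the highest peak can also be set against the reads of its model, as a percentage. It is not a share of those reads, since the peak exceeds the reads in some other models, though in 0 of the 7 members. For the 8956 models that had 100 reads or more in each library, the median percentage was 24.7% in the heat-stress library and 25.4% in the control library. Solyc03g117630 had the highest percentage of the 7, with 38.5% in the heat-stress library and 44.7% in the control library, a difference of -6.14 percentage points. Over all 8956 models the difference had quartiles of -2.44 and 1.16 points. Solyc11g066100 also lay above the medians, with 35.5% in the heat-stress library and 34.99% in the control library. Solyc04g011440 had 23.7% in the heat-stress library and 20.6% in the control library, a difference of 3.04 points. In Solyc11g066060, the model that was 4-fold lower, the percentage was 24.6% in the heat-stress library and 25.8% in the control library. The remaining 3 members had percentages from 21.2% to 27.2% and differences from -0.51 to 2.06 points. The libraries differ in depth, and these percentages carry no interval.

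**Figure D4:**
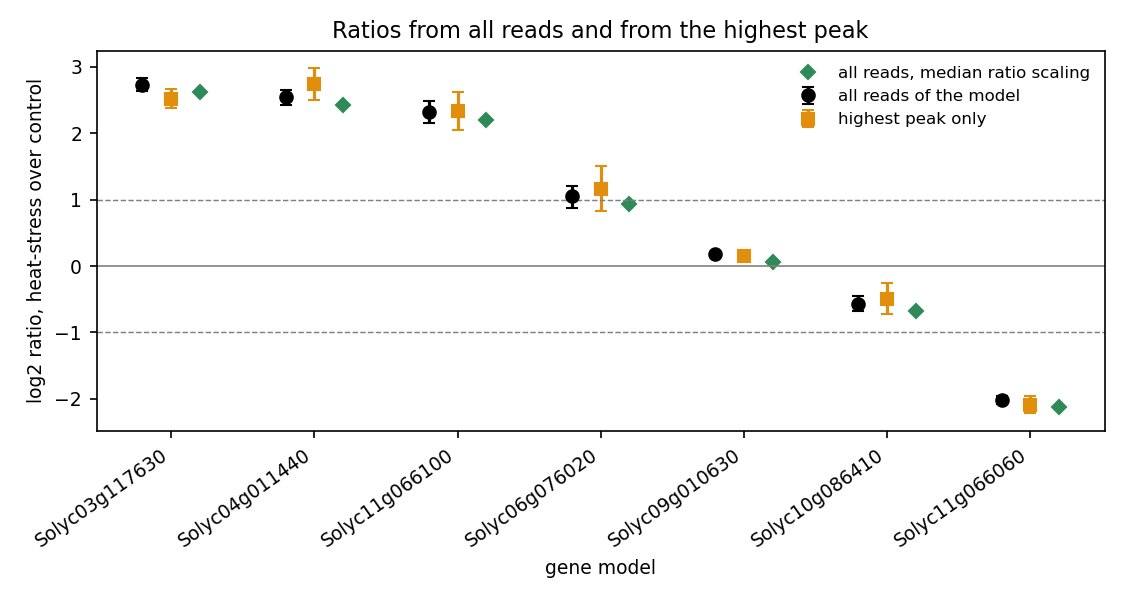
Log2 ratio of heat-stress to control for each Hsp70/Hsc70 model from all its reads (black circles), from its highest peak only (orange squares) and from all reads after scaling to a median ratio of 1 (green diamonds), without a pseudocount. Bars are 95% counting intervals, with the peak height treated as a count of reads, and dashed lines mark 2-fold. The signs are the same for all 3 measures in every model, and Solyc06g076020 alone lies near a dashed line.

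Hsp70 genes are similar in sequence, so reads can match several of them. Reads were not a whole number, as when a read is divided between locations, for 4 members in the control library (Solyc04g011440, Solyc06g076020, Solyc11g066060 and Solyc09g010630) and for 1 in the heat-stress library (Solyc09g010630). Other models had such reads too, and the share of all models with them was not counted. A whole number does not show that no read was divided, and with which models reads were shared is not recorded. The 3 members with whole-number reads in both libraries were Solyc03g117630, Solyc11g066100 and Solyc10g086410. Rounding all reads down to whole numbers gave 4 higher members, as before. That step removes only fractions of a read, so it cannot show what shared reads contribute. Whether reads were counted by strand is not stated, so overlapping or antisense models may share reads unseen.

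The identifiers number the models along each chromosome, which allows a look at what lies beside each member. Of 39 other models listed within 3 places on either side of a member, 18 had a mean of at least 5 RPM, and 0 of these were 2-fold higher or lower. Over all 11271 models 3.91% were 2-fold higher and 1.66% lower, shares that leave little to see among 18 models. The log2 ratios of the 18 neighbours lay between -0.68 and 0.66, with a median of 0.10. Solyc11g066060 and Solyc11g066100, on opposite strands of chromosome 11, are separated by 3 listed models that reached at most 3.32 RPM in the heat-stress library and 5.29 RPM in the control library. In the heat-stress library Solyc11g066060 had 1.25 times the level of Solyc11g066100 (184 and 148 RPM), and in the control library 25.1 times (746 and 29.7 RPM).

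The neighbour that moved most was the next model after Solyc04g011440, on the same strand and under the filter. It had 82 reads in the heat-stress library and 9.5 in the control library, with a ratio of 7.18 (3.53 to 14.8), near the 5.83 of Solyc04g011440. Its highest peak, 91 reads in the heat-stress library and 12.5 in the control library, was above its own reads in both. Whether its reads come from the same transcripts as those of Solyc04g011440 was not tested.

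**Figure D5:**
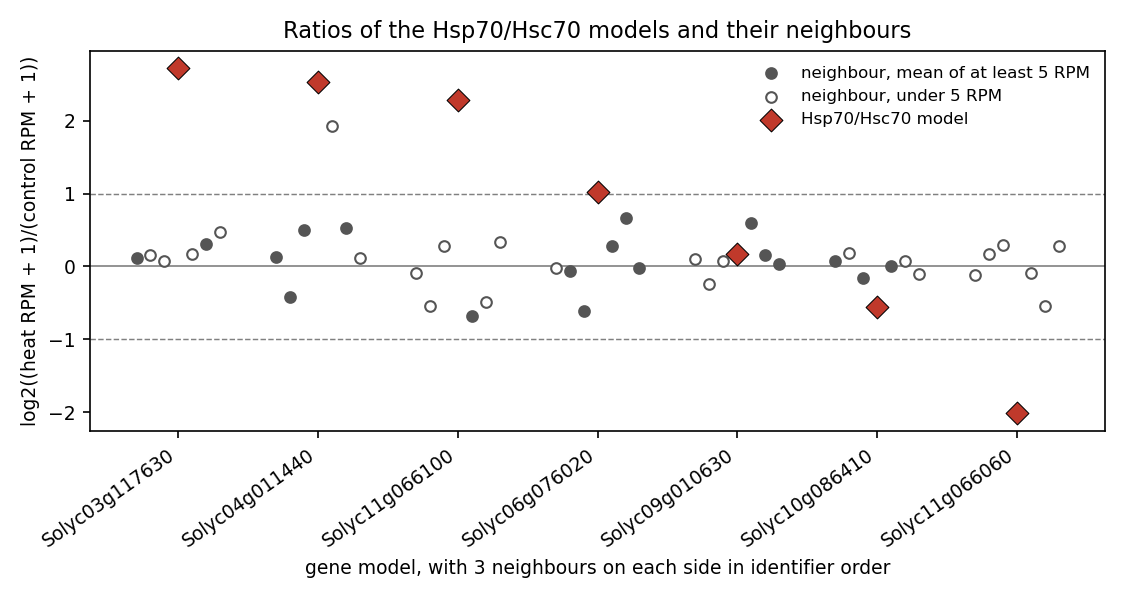
Log2 ratio, log2((heat-stress RPM + 1)/(control RPM + 1)), of each Hsp70/Hsc70 model (red diamonds) and of the 3 listed models on each side of it in identifier order (circles; filled, mean of at least 5 RPM; open, less). Dashed lines mark 2-fold; filled circles stay between -0.68 and 0.66, and the open circle at 1.92 is the model next to Solyc04g011440.

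Models with the most similar pair of levels were sought for the member with the highest ratio and for the most abundant one, by the distance between log2(RPM + 1) values in the 2 libraries. The nearest to Solyc03g117630 was Solyc08g062340 on chromosome 8, with 539 RPM in the heat-stress library and 84.2 RPM in the control library, at a distance of 0.21. The nearest to Solyc09g010630 was Solyc04g082200 on chromosome 4, with 1403 RPM in the heat-stress library and 1176 RPM in the control library, at a distance of 0.07. With 2 libraries, such likeness rests on 2 values per model.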

How the data were processed

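MACE libraries of leaf poly-A RNA were used, 1 per condition. Per the labels' protocols the last 500 bp of transcripts were sequenced. FastQC is the only tool in the submitters' processing notes, and no source used here names the aligner, the genome build or the annotation. Per the file headers the authors deposited, for each gene model, an estimated count of reads, a total count of mapped reads, a value headed TPM and the highest peak, a signal in reads. The deposited TPM equalled reads per 1000000 mapped reads on every row (largest difference 3.42e-08), so it is RPM here. The total mapped reads set the depth: 1 read was worth 0.0722 RPM in the heat-stress library and 0.0867 RPM in the control library.

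Identifiers were matched without their version suffix, and a model not listed counted as 0. A mean of at least 5 RPM, a pseudocount of 1 RPM, a 2-fold threshold and 100 RPM as abundant were used, with Python 3.11.15, pandas 2.3.3 and scipy 1.17.1. Intervals used reads rounded to whole numbers. Calculations were tested on simulated data. The members, thresholds and lists were chosen with earlier results of these data known. The named models are the 7 members and the nearest model to the member with the highest ratio and to that with the highest control level. Lists of other chaperones needed descriptions and were not used. Alternatives were other pseudocounts, scalings, thresholds and filters, thinning, peaks in place of reads, reads rounded down and leaving out members.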

Additional observations from a re-analysis of the deposited data

How the results depend on the processing

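The 4 members at least 2-fold higher were 3 with a pseudocount of 5 RPM, with the median ratio scaling and with a 4-fold threshold, and 4 under the other 7 alternatives. Members of at least 50 RPM in the control library numbered 5 of the 7, and those of at least 500 RPM numbered 2. Shares of all models at these 2 levels were not counted. Over all models, 441 were at least 2-fold higher, against 267 with a pseudocount of 5 RPM, 1370 at 1.5-fold and 87 at 4-fold. Of 49 log2 ratios recomputed for single members, 0 changed sign and 7 moved by more than their counting interval. With the median ratio scaling they were 2.42 for Solyc04g011440, -0.67 for Solyc10g086410, -2.12 for Solyc11g066060, 0.067 for Solyc09g010630 and 2.61 for Solyc03g117630. With the highest peak in place of reads they were 2.66 for Solyc04g011440 and 2.49 for Solyc03g117630. The ratio of the sums, 1.24, was 1.15 with the median ratio scaling and 1.27 with the gene-model scaling. It was 3.33 over the 3 members with whole-number reads. That subset leaves out, among others, Solyc09g010630 and Solyc11g066060, which gave 51.7% and 32.5% of the control sum. The 3.33 therefore does not show the effect of shared reads. The ratio of the sums was 1.10 without Solyc04g011440, 1.28 without Solyc10g086410 and 1.72 without Solyc11g066060. It was 1.19 without Solyc11g066100, 1.36 without Solyc09g010630 and 1.02 without Solyc03g117630. No paired analysis was possible because there was 1 library per condition. Counting error is small for all 7 members (at least 343 reads), and the spread between plants is unknown.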
